A study of Mus musculus with 16 samples.

Results

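Dicer1 encodes Dicer, and short reads of its own messenger RNA are described here across 8 groups of cultured mouse cells. A read was taken as a Dicer1 fragment if, after removal of the 3′ adapter, it was 20 nt or longer, matched a mouse Dicer1 transcript in the sense direction without mismatch, and matched no transcript of another gene. Over 16 libraries, 3118 of 267905352 reads met this rule, and they came from 27 distinct sequences. Dicer1 was 1 of 12014 genes with at least 1 read of this kind. The gene was chosen by its read counts in these libraries, so its levels are given as a description without a test.

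The cells were C57BL/6 mesenchymal stem cells, and each group had 2 libraries of gel-selected small RNA. WT mCherry cells were Dicer f/f and KO mCherry cells were Dicer -/-, and both carried the fluorescent protein mCherry. In the other 6 groups Dicer -/- cells had been transfected with human Dicer (hsDicer) or with human Dicer bearing D1320A, D1709A, both of these, K70A or Y971A/Y972A. The labels do not give the part of the mouse gene that is deleted, the share of cells that took up a construct, or whether replicates came from separate cultures. Differences between replicates may therefore be technical. RNA of whole cultures was sequenced, so fewer cells with a construct and less RNA per cell cannot be told apart.

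Dicer is the ribonuclease that cuts hairpin precursors into miRNA duplexes, the last cut before a strand is loaded into an Argonaute protein. Its RNase IIIA and RNase IIIB domains each cut 1 strand of the precursor, its PAZ domain holds the 3′ end of the precursor, and its helicase domain lies at the amino end. D1320 and D1709 are acidic residues of the RNase IIIA and IIIB active sites, Y971 and Y972 lie in the PAZ domain, and K70 lies in the ATP-binding site of the helicase domain.

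Mouse Dicer1 (ENSMUSG00000041415) lies on the minus strand of chr12:104687742-104751952 in GRCm38, as annotated in GENCODE. Positions below count from base 1 of transcript Dicer1-201, which has 27 exons and 9851 nt, with a 5′ UTR of 279 nt, a coding sequence from base 280 to base 6000 and a 3′ UTR of 3851 nt. The sequences that hold most of the reads are printed because each library's level rests on a few of them. All are sense sequences from the deposited reads, and capitals mark codons that correspond to residues mutated in the human constructs.
Sequence 1: tggtggttcgttttgatttgcc
Sequence 2: tacagacaagataaagagctttga
Sequence 3: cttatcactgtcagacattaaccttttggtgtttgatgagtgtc
Sequence 4: ctagaccacccctatcgtgaaattatgaag
Sequence 5: ttgatgccagttgggaaagagact
Sequence 6: cttttgcagaaTATTATaaaaca
Sequence 15: ttcctgggaGATgcgattttggacta
Sequence 19: gactgccatggcaacaagaagca

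Sequences are numbered by their total reads. Sequence 1 covers bases 1847 to 1868 in exon 10 (chr12:104713128-104713149), within codons 523 to 530. Sequence 2 covers bases 1944 to 1967 of the same exon (chr12:104713029-104713052). Both lie in the coding part of exon 10. Sequence 3 (bases 738 to 781, chr12:104729169-104729212) and sequence 4 (bases 793 to 822, chr12:104729128-104729157) lie in exon 5. Sequence 5 (bases 2383 to 2406, chr12:104708875-104708898) lies in exon 14, and sequence 6 (bases 3149 to 3171, chr12:104705118-104705140) in exon 18. Sequence 6 holds the paired tyrosine codons, TATTAT, that match Y971 and Y972 of the human protein. Sequence 15 (bases 5347 to 5372, exon 24, chr12:104694701-104694726) holds the aspartate codon, GAT, that matches D1709, and was picked for this after its reads were seen. Sequence 19 (bases 335 to 357, exon 2, chr12:104731836-104731858) was the only sequence of 10 or more reads in the hsDicer group.

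Libraries held 10331036 to 20502254 inserts of 15 nt or more, and levels are reads in each 1000000 of these inserts (CPM). A count of 0 allows up to 3 reads, which is 0.146 to 0.290 CPM depending on the library. Such limits cover counting error only, since reads copied by PCR are not independent molecules. Reads of protein-coding genes in sense came to 8953 to 28971 CPM per library, but they fell on very different numbers of genes. In replicate 1 of WT mCherry, KO mCherry, hsDicer, D1320A/D1709A, K70A and Y971A/Y972A they came from 206 to 352 coding genes, in D1709A replicate 1 from 1127 and in D1320A replicate 1 from 3221. Replicate 2 libraries held 2125 to 5214. Replicate 1 was read to 41 nt and replicate 2 to 51 nt. Of 11 mesenchymal markers 8 had reads, with a summed level of 0.277 to 322 CPM in construct libraries and 0.0968 to 124 CPM in mCherry libraries, while Thy1, Nt5e and S100a4 were at 0. The markers of blood cells (5 genes), endothelium (3), epithelium (4) and adipocytes (3) had no read in any library. The library labelled Y971A/Y972A replicate 1 stood apart from the other construct libraries in reads that fit Dicer1 with substitutions, described further on, which were at the mCherry level. The part of the number of genes sampled, of the read length and of the marker level in the values below was not tested.

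Reads that matched Dicer1 and no other gene were nearly absent from the mCherry libraries and were found in 11 of the 12 construct libraries, at levels that differed widely within a group. The direction turned when 4966 reads that also match another gene were kept, with a mean of 48.9 CPM in mCherry and 26.3 CPM in construct libraries. This turn came from WT mCherry, at 90.2 CPM. KO mCherry stood at 7.55 CPM, below the construct mean and below every construct group except hsDicer (4.18 CPM). Between the mCherry and construct means the direction held when each distinct sequence was counted once per library, at 0.0520 and 0.184 CPM. D1320A was then highest at 0.478 CPM, and hsDicer alone of the construct groups, at 0.0533 CPM, lay below KO mCherry at 0.0797 CPM. WT mCherry had 0 and 1 read in replicates 1 and 2, and KO mCherry had 1 and 1. These correspond to 0 and 0.0488 CPM in WT mCherry and 0.0968 and 0.0626 CPM in KO mCherry. All 4 mCherry values lie below the level of 3 reads, so wild-type and knockout cells were not distinguished by this measure at this depth. The endogenous transcript therefore gives no check of the f/f and -/- labels here.

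With wild-type human Dicer, hsDicer libraries had 0 and 27 reads, or 0 and 1.44 CPM. D1320A libraries had 334 and 200 reads, or 22.1 and 16.4 CPM. This RNase IIIA mutant was the construct group whose replicates were closest in proportion, and both of its libraries exceeded every mCherry library. D1709A libraries, mutated in RNase IIIB, had 11 and 3 reads, or 0.859 and 0.290 CPM. The D1320A/D1709A double mutant had 2 and 78 reads, or 0.121 and 4.10 CPM. Its replicates thus fell below and above the level of 3 reads. K70A libraries, mutated in the helicase domain, had 2068 and 176 reads, or 139.8 and 12.7 CPM. Y971A/Y972A libraries, mutated in the PAZ domain, had 3 and 213 reads, or 0.170 and 13.1 CPM. K70A replicate 1 alone held 2068 of the 3115 reads of the construct libraries.

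Ordered by group mean, K70A stood at 76.2 ± 89.9 CPM (SD, n = 2), D1320A at 19.3 ± 4.02, Y971A/Y972A at 6.61 ± 9.11 and D1320A/D1709A at 2.11 ± 2.82. hsDicer (0.719 ± 1.02), D1709A (0.575 ± 0.403), KO mCherry (0.0797 ± 0.0242) and WT mCherry (0.0244 ± 0.0345) followed. K70A and D1320A overlapped. Y971A/Y972A, D1320A/D1709A, hsDicer and D1709A all overlapped with one another. The hsDicer range, from 0 to 1.44 CPM, also took in all values of both mCherry groups. K70A, from 12.7 CPM, also overlapped with Y971A/Y972A, which reached 13.1 CPM. D1320A lay above Y971A/Y972A, and D1709A above KO mCherry, without overlap. D1709A replicate 2, at 0.290 CPM, lay at its level of 3 reads. All D1709A reads were of sequences with far more reads in a K70A library, as described further on. Over all construct libraries the level was 17.6 ± 39.2 CPM (SD, n = 12) with a median of 2.77, against 0.0520 ± 0.0401 CPM (n = 4) over the mCherry libraries. Without K70A replicate 1 the construct mean was 6.48 CPM, and without Y971A/Y972A replicate 1 it was 19.2 CPM. Without that library, the Y971A/Y972A value of 13.1 CPM lay above both D1320A/D1709A values.

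**Figure D1:**
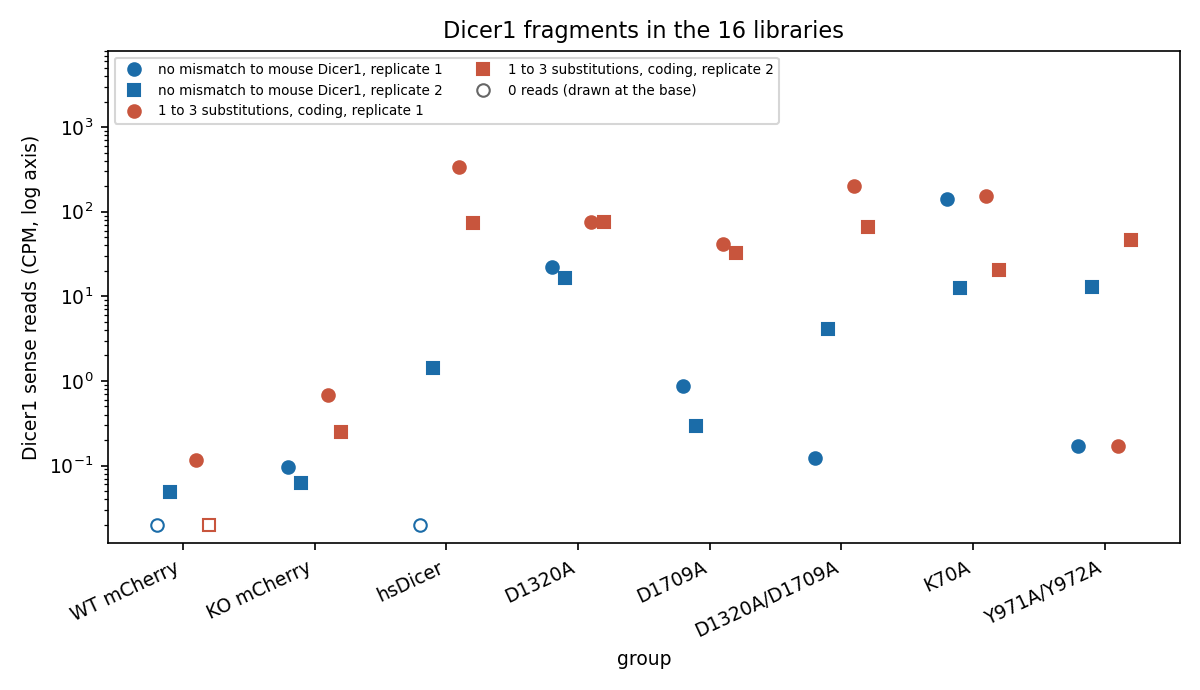
Dicer1 sense reads (CPM, log axis) in each library, by group, for reads without mismatch (blue) and for coding reads with 1 to 3 substitutions (red). Circles are replicate 1 and squares replicate 2, and open symbols at the base are counts of 0. Construct libraries reach 139.8 CPM without mismatch and 337 CPM with substitutions, while every mCherry library lies below 1 CPM.

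Set among coding genes, Dicer1 was a major source of fragments in some libraries and a minor one in others. It ranked 30th of 352 coding genes with reads in K70A replicate 1 and 31st of 3221 in D1320A replicate 1. It ranked 118th of 3814 in Y971A/Y972A replicate 2, 133rd of 4074 in D1320A replicate 2 and 274th of 3259 in K70A replicate 2. In hsDicer replicate 2 it ranked 3430th of 5214. Of each 1000000 reads of coding genes, Dicer1 took 11729 in K70A replicate 1, 1415 and 679 in the D1320A libraries, 708 in Y971A/Y972A replicate 2 and 577 in K70A replicate 2. With reads of 20 nt or more, the same 3 mutants thus led on either scale.

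The reads came from few sequences. Sequence 1 made up 2079 reads, 66.7% of the total, and 2064 of these were in K70A replicate 1, where they were 99.8% of the Dicer1 reads. Sequence 2 had 112 of its 114 reads in K70A replicate 2. Neither K70A library held the leading sequence of the other. Sequence 3 had all 82 reads in Y971A/Y972A replicate 2, sequence 4 all 78 in D1320A replicate 1 and sequence 6 all 72 in D1320A replicate 2. Sequence 5 had 77 of 78 reads in D1320A/D1709A replicate 2, and sequence 19 had 26 of 27 in hsDicer replicate 2. Each of these sequences thus lay wholly or almost wholly in 1 library.

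In all, 21 of the 27 sequences occurred in 1 library and 6 in more. The 19 sequences with 10 or more reads had a median of 57 reads, and below sequence 1 they ranged from 27 to 114. The other 8 had fewer than 10. Distinct sequences per library were most numerous in D1320A, with 7 and 6, and in Y971A/Y972A replicate 2, with 5. K70A replicate 1 had 2. Among 564 coding genes with 1000 to 10000 reads the median number of distinct sequences was 18, and 70.2% had fewer than Dicer1.

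**Figure D2:**
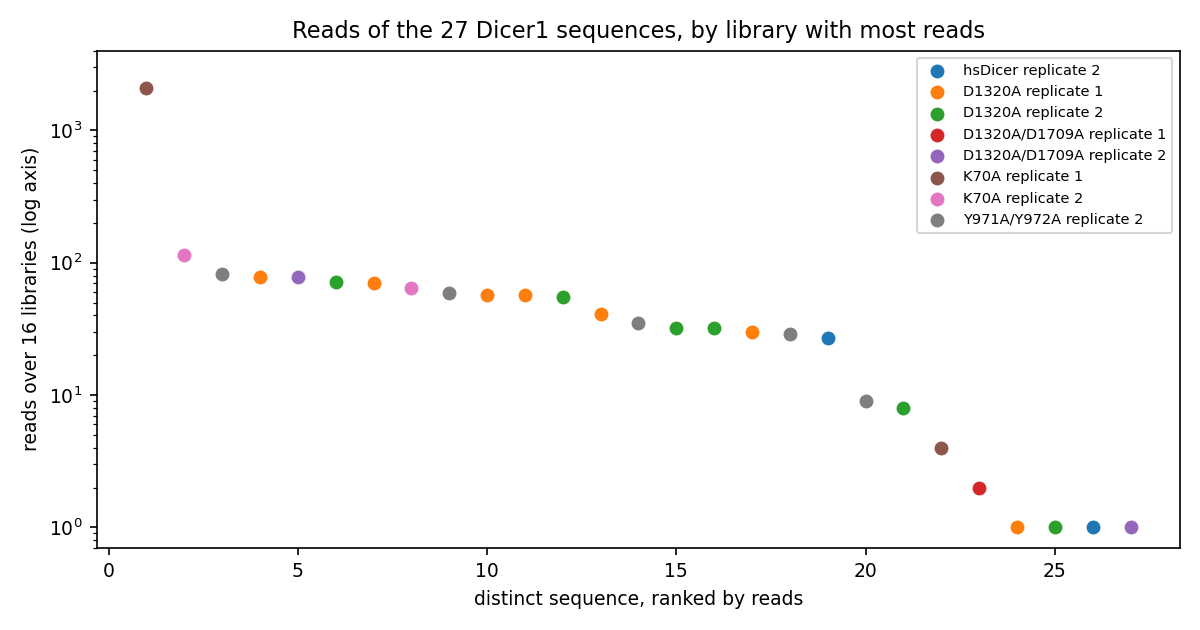
Reads summed over the 16 libraries (log axis) for each of the 27 Dicer1 sequences, ranked by reads and coloured by the library that holds most of them. Sequence 1, mostly from K70A replicate 1, has 2079 reads, and the next 18 lie between 27 and 114.

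Where a sequence occurred in more than 1 library, the smaller count was 0.0484% to 3.85% of the larger, and both libraries had the same replicate number. This holds for 8 counts, among them all 3 reads of the mCherry libraries. KO mCherry replicate 1 held 1 read of sequence 1 against 2064 in K70A replicate 1. WT mCherry replicate 2 held 1 read of sequence 5 against 77 in D1320A/D1709A replicate 2, and KO mCherry replicate 2 held 1 of sequence 19 against 26 in hsDicer replicate 2. The 11 reads of D1709A replicate 1 and the 3 of Y971A/Y972A replicate 1 were also sequence 1, at 0.533% and 0.145% of its count in K70A replicate 1. The 3 reads of D1709A replicate 2 were 2 of sequence 2 and 1 of a sequence with 63 reads in K70A replicate 2. Without counts under 5% of another library, a limit chosen after the values were seen, mCherry and D1709A libraries and Y971A/Y972A replicate 1 had 0 reads, and the construct libraries kept 3097. Exchange of reads between libraries was not tested.

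Along the transcript, fragments lay mainly in the coding sequence. Of the 27 sequences 24 were wholly coding (3047 reads), 1 crossed the start codon (9 reads, Y971A/Y972A replicate 2) and 2 lay in the 3′ UTR. In construct libraries 3044 of 3115 reads were coding, 97.7% (exact binomial 95% interval 97.1 to 98.2, counting error only), whereas the coding sequence is 58.1% of the transcript's length. This share was 93.2% without K70A replicate 1, and 64.6% when reads that also match another gene were kept. The 3′ UTR fragments were 30 reads in D1320A replicate 1 (bases 6879 to 6902, chr12:104690691-104690714) and 32 in D1320A replicate 2 (bases 9177 to 9214, chr12:104688379-104688416). Both D1320A libraries thus held 1 such fragment at a different place, and no other library held any.

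Coding fragments without mismatch began mostly in the first of 3 equal stretches of coding sequence. Of the 25 sequences with coding bases, 17 (2828 reads) began there, 5 (194 reads) in the middle stretch and 3 (34 reads) in the last. Sequence 1 gave 2079 of the 2828 reads, nearly all from K70A replicate 1. It begins at base 1847, towards the end of that first stretch. Together the 25 sequences covered 474 nt, 8.29% of the coding sequence. The median GC content of the sequences was 45.5%, beside 47.2% for the coding sequence. Of all sequences, 2 crossed an exon junction.

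Sequences of 8 or more reads from different libraries met at 2 places. At bases 738 to 781 in exon 5, overlapping sequences came from 3 libraries and differed by a few bases at their ends. They are shown to make the shared core and the shifted ends visible.
Sequence 3: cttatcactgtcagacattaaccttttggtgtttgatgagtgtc
Sequence 8: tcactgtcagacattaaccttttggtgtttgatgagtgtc
Sequence 12: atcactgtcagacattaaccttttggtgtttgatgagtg
Sequence 21: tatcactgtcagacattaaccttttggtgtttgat

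Sequence 3 had 82 reads in Y971A/Y972A replicate 2, sequence 8 had 63 reads in K70A replicate 2, and sequences 12 and 21 had 55 and 8 reads in D1320A replicate 2. Sequences 3 and 8 share their last base, 781. This stretch was thus read 8 or more times in 3 different mutants, all sequenced as replicate 2. D1709A replicate 2 also held 1 read of sequence 8. A second group of sequences ends at base 1649 in exon 9, and is printed to show the common 3′ end.
Sequence 9: ttgataaaggaagctggcaaaca
Sequence 11: aacagattgataaaggaagctggcaaaca
Sequence 14: ataaaggaagctggcaaaca

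Sequence 9 had 58 reads in Y971A/Y972A replicate 2 and 1 in K70A replicate 2, and begins at base 1627. Sequence 11 had 57 reads in D1320A replicate 1, begins at base 1621 and crosses from exon 8 into exon 9. Sequence 14 had 35 reads in Y971A/Y972A replicate 2 and begins at base 1630. Leaving the 1 read of K70A aside, the same last base was thus read in replicate 1 of one mutant and replicate 2 of another, from 3 different starts.

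**Figure D3:**
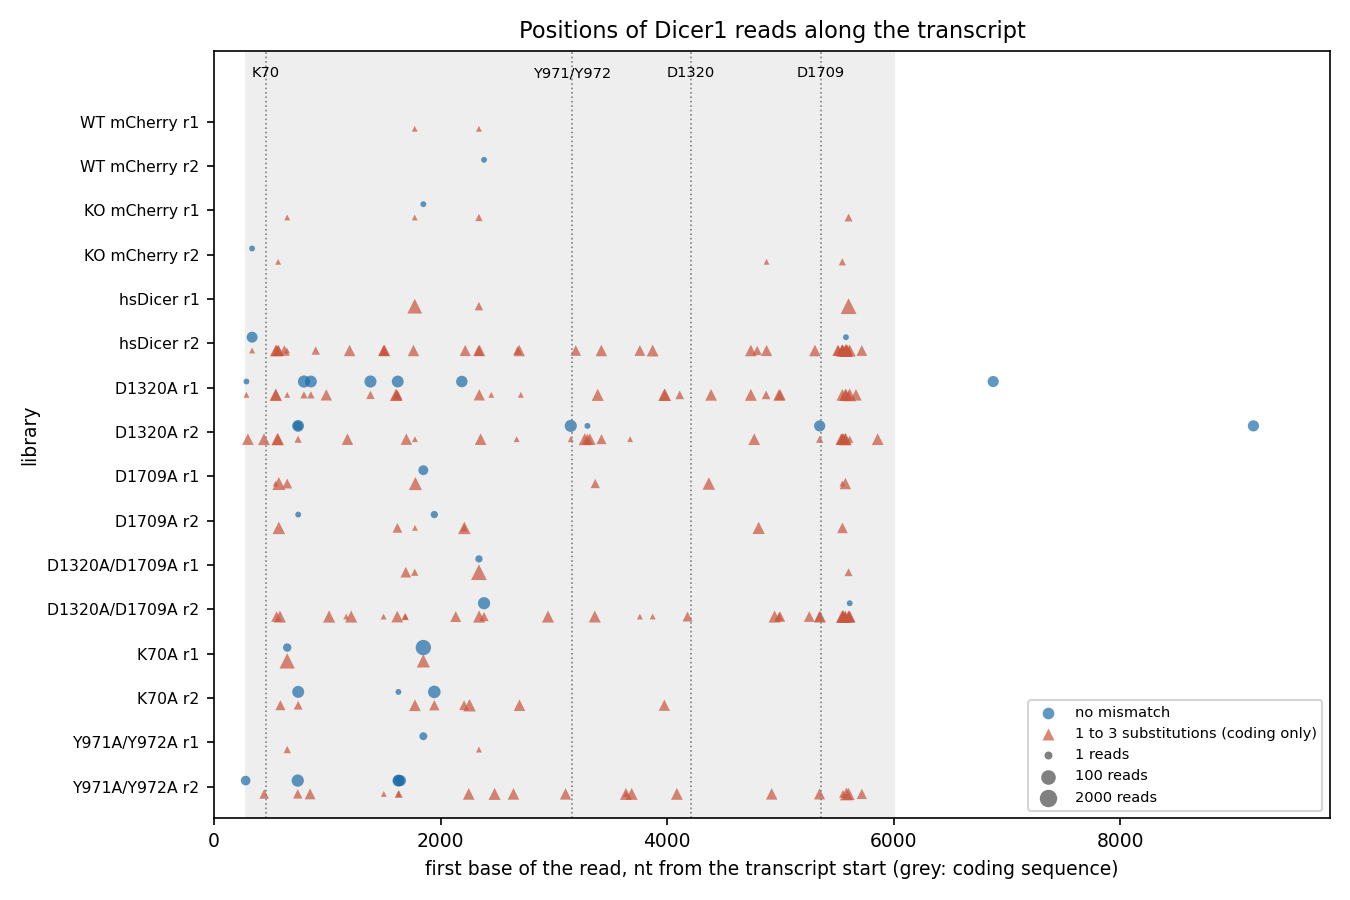
First base of each Dicer1 read along transcript Dicer1-201 (nt from the transcript start), by library, for reads without mismatch (circles) and coding reads with 1 to 3 substitutions (triangles), with marker area growing with reads. Grey marks the coding sequence and dotted lines the mutated codons. Reads without mismatch lie outside the coding sequence only in the D1320A libraries, apart from 1 sequence across the start codon in Y971A/Y972A replicate 2.

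Lengths ran from 20 to 44 nt with a median of 24 over the 27 sequences. Of these, 17 sequences (2636 reads) were 20 to 24 nt long, and 6 were 30 nt or longer. Sequence 1 is 22 nt long and set the mean length of K70A replicate 1 at 22.0 nt. Mean length weighted by reads was 26.5 and 30.7 nt in the D1320A libraries, 30.3 nt in Y971A/Y972A replicate 2 and 29.7 nt in K70A replicate 2. D1709A replicate 2, with 3 reads, stood at 29.3 nt. The mean length was thus not ordered by the number of sequences in a library.

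**Figure D4:**
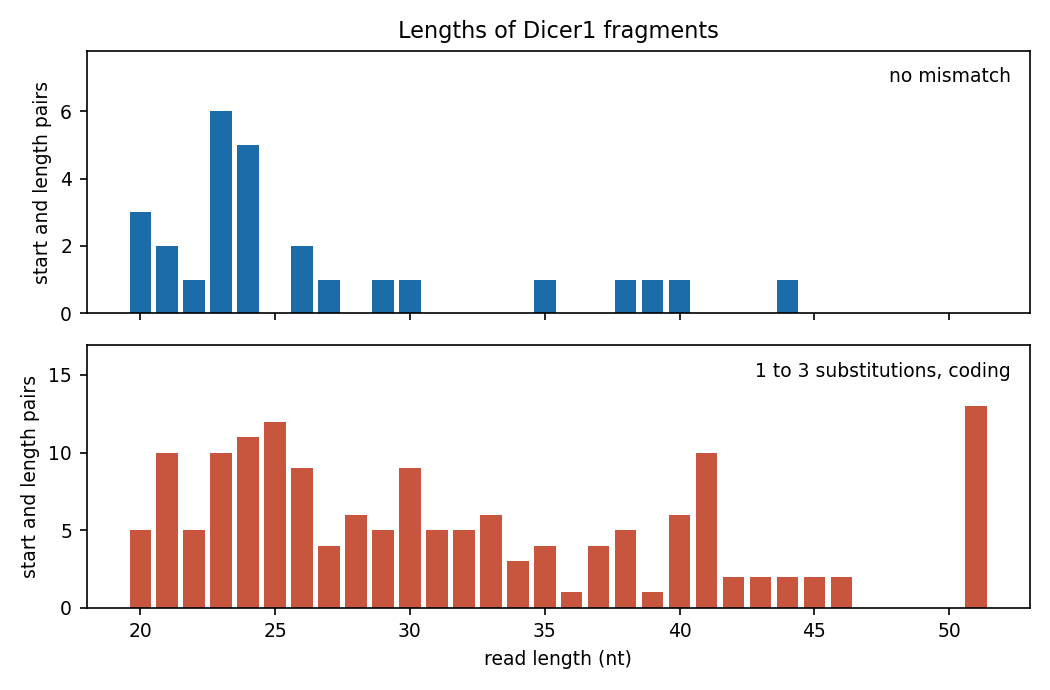
Number of distinct pairs of start and length at each read length (nt), for Dicer1 reads without mismatch (upper panel) and coding reads with 1 to 3 substitutions (lower panel). Reads without mismatch peak at 23 nt with 6 pairs. Those with substitutions are spread more widely, with 10 pairs at 41 nt and 13 at 51 nt, the full read lengths of replicates 1 and 2. Longer reads were allowed more substitutions, so the difference between the panels may follow in part from the search rule.

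Because the constructs encode human Dicer, the same libraries were searched for reads that fit the mouse coding sequence with substitutions. A read of 20 to 23 nt was allowed 1 substitution, of 24 to 29 nt up to 2, and of 30 nt or more up to 3, and it had to match no mouse transcript exactly. No human transcript sequence was used here, so these reads are described only by how they differ from mouse Dicer1, and they were not compared with substitutions to other genes. This search was added after the exact counts were seen. It found 17092 reads of 398 sequences at 146 start positions, more than 5 times the reads without mismatch.

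Substituted reads were found almost only in construct libraries. WT mCherry libraries had 0.116 and 0 CPM and KO mCherry libraries 0.678 and 0.251 CPM. hsDicer libraries had 337 and 73.1 CPM, so wild-type human Dicer, nearly without exact reads, had the highest value of all. D1320A libraries had 75.1 and 76.2 CPM, D1709A libraries 41.0 and 32.8 CPM, and D1320A/D1709A libraries 203 and 66.0 CPM. K70A libraries had 155 and 20.2 CPM, and Y971A/Y972A libraries 0.170 and 45.9 CPM. Y971A/Y972A replicate 1 thus stood at the mCherry level, with 3 substituted reads and reads of only 275 coding genes. Its 2 substituted sequences also occurred in another construct library of the same replicate number, at 0.0302% to 0.104% of the count there. The cause was not tested, and the value does not decide on the label.

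The mean of the 12 construct libraries lay above that of the 4 mCherry libraries by 7.79 on the log2(CPM + 0.05) scale, and 11 of the 12 lay above all mCherry libraries. Without Y971A/Y972A replicate 1 the difference was 8.49. Against the 2 KO mCherry libraries alone it was 6.61. Within replicate 1 it was 6.98, with 5 of 6 construct libraries above both mCherry libraries, and within replicate 2 it was 8.59, with 6 of 6 above. The direction was the same within each replicate number, which also separates the read lengths. No test is given, because the gene was chosen on the same contrast in the same libraries and some substituted reads begin where an exact sequence does.

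By group, substituted reads stood at 205 ± 187 CPM in hsDicer (SD, n = 2), 135 ± 96.9 in D1320A/D1709A, 87.4 ± 95.05 in K70A, 75.7 ± 0.756 in D1320A, 36.9 ± 5.79 in D1709A and 23.04 ± 32.3 in Y971A/Y972A. KO mCherry stood at 0.464 ± 0.302 and WT mCherry at 0.0578 ± 0.0818. The ranges of hsDicer, D1320A/D1709A and K70A overlapped with each other and each with D1320A. That of K70A also overlapped with D1709A and Y971A/Y972A. Y971A/Y972A overlapped with D1709A only through its replicate 1, and its replicate 2 lay above both D1709A libraries. Through the same replicate 1 its range took in both KO mCherry values. The 9 sequences behind the 13 substituted reads of mCherry libraries all also occurred in construct libraries of the same replicate number.

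Along the coding sequence, substituted reads were not gathered in the first stretch as the exact reads were. Of 146 starts, 57 (5284 reads) lay in the first of the 3 equal stretches, 41 (4978 reads) in the middle one and 48 (6830 reads) in the last. In hsDicer replicate 2 the last stretch had 18 starts and the first 13.

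The number of start positions differed sharply between replicates. hsDicer had 3 and 40 starts, D1320A/D1709A 4 and 33, K70A 2 and 8, and Y971A/Y972A 2 and 20. D1320A had 30 and 26, and D1709A 8 and 7. In replicate 1 of hsDicer the 4861 substituted reads came from only 3 starts, of which 1 gave 3767 reads. In replicate 2 of hsDicer reads covered 809 coding nt, 14.1% of the coding sequence, the most of any library. High values in replicate 1 of hsDicer, D1320A/D1709A and K70A thus rested on 2 to 4 positions.

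By reads, though not by number of distinct substitutions, most substitutions fell on recurring bases. At 45 bases a substitution was seen in 20 or more reads from at least 2 starts and outnumbered the mouse base, mutated codons left aside. At 42 of the 45 over 95% of the reads that crossed the base carried it, and the lowest share was 80.1% (A2379C). Substitutions are written as the mouse base, its position and the base read. Of the 45, 36 (80%) fell at the third base of a codon and 36 left the amino acid unchanged. C5607T had 4436 reads in 9 libraries, G5619A had 4449 in 8, A2349G had 3488 in 8 and C5589T had 1395 from 16 starts in 8. These 4 are synonymous. G665A, with 2087 reads in 6 libraries, changes the amino acid of codon 129. At these bases 15106 reads carried only substituted bases, 11 only mouse bases and 79 some of each. The bases were picked in these same reads for an excess of the substituted base, so these shares and counts follow in part from that choice. A5599G, with 61 reads substituted and 926 with the mouse base, was left out.

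The reads without mismatch seldom crossed such a base. Of the 27 exact sequences 4 did, with 8 reads in all, and none of these had 10 or more reads. The other 21 sequences with coding bases, with 3048 reads, crossed none. One example is the stretch from base 645 in K70A replicate 1, where 4 reads were exact beside 2074 substituted reads from that start. Reads without mismatch thus lay almost wholly on stretches where no recurring substitution was seen. This follows in large part from the rule, since a recurring substitution had to outnumber the mouse base and exact reads count towards the mouse base. A stretch with many exact reads could therefore hardly hold such a base. The recurring bases do not tell from which copy of the gene the exact reads came. As a share of exact and substituted reads together, exact reads were 47.5% and 38.5% in K70A, 22.7% and 17.7% in D1320A and 22.1% in Y971A/Y972A replicate 2. They were 0.0598% and 5.85% in D1320A/D1709A, 2.05% and 0.875% in D1709A, and 0 and 1.93% in hsDicer.

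With both kinds of read counted, the order of the groups changed. Levels were then 337 and 74.5 CPM in hsDicer, 97.3 and 92.6 in D1320A, 41.9 and 33.1 in D1709A, 203 and 70.1 in D1320A/D1709A, 294 and 32.9 in K70A and 0.340 and 59.0 in Y971A/Y972A. The mCherry libraries stood at or below 0.774 CPM. hsDicer, below K70A, D1320A, Y971A/Y972A and D1320A/D1709A by exact reads, then had the highest mean, 206 ± 186 CPM (SD, n = 2), above K70A with 164 ± 185 and within its spread.

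Reads over the mutated codons carried the labelled mutations in 1 library, D1320A/D1709A replicate 2. The codon of D1320 is GAC in the mouse, at bases 4207 to 4209 in exon 21, and in D1320A/D1709A replicate 2 all 12 reads over it carried A4208C, which makes it the alanine codon GCC. The codon of D1709 is GAT, at bases 5356 to 5358 in exon 24, and all 80 reads of that library over it carried A5357C, which makes it GCT, also alanine. The 12 reads share 1 start and length, and the 80 come from 2, so they may stand for few molecules. In D1320A replicate 2, not mutated at D1709, 33 reads over that codon had GAT and 1 had A5357G, and in Y971A/Y972A replicate 2 all 31 had GAT. The tyrosine codons, shown in capitals in sequence 6, were TATTAT in 73 reads of D1320A replicate 2. The codon of K70 was AAG in 56 reads of D1320A replicate 2 and 10 of Y971A/Y972A replicate 2. In D1320A/D1709A replicate 1 no read kept by the search crossed a mutated codon. In the D1320A, D1709A, K70A and Y971A/Y972A libraries none crossed the library's own mutated codon, so those labels were not checked in this way. The search rule limits this. Alanine codons at both Y971 and Y972 differ from TATTAT by more than the 3 substitutions allowed, so reads over both could not be kept. An alanine codon at K70 differs from AAG by at least 2, so no such read under 24 nt could be kept. The mouse codons are 1310, 1693, 961, 962 and 60 for D1320, D1709, Y971, Y972 and K70, found by the residues around them.

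Among 6890 genes with 100 or more reads, 5 had levels most like those of Dicer1 over the 16 libraries. Pearson's r of log2(CPM + 0.05) was 0.870 for Fam102b, 0.847 for Ccnl1, 0.779 for the snRNA gene Gm22265, 0.756 for Camk2d and 0.756 for Rptor, beside a median of 0.212 over all genes compared. Ccnl1 encodes cyclin L1, Camk2d a subunit of calcium/calmodulin-dependent kinase, and Rptor the mTORC1 component raptor. All 5 were highest in K70A replicate 1, at 96.3, 203, 149, 36.2 and 124 CPM in that order. All genes compared share these libraries and their depth.

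Other genes of the miRNA pathway gave no called change. The list held 24 genes, among them the nuclear processing enzyme Drosha, the exporter Xpo5, the Argonaute and Tnrc6 genes of the silencing complex and the helicases Ddx5 and Ddx17. Of these, 20 had enough reads to be tested, and 0 passed an adjusted p of 0.05 in KO mCherry against WT mCherry by edgeR's quasi-likelihood test, beside 0% of 10641 genes tested. Again 0 passed in the 6 construct groups against KO mCherry, beside 0.179% of all genes (19, all lower in construct groups, and 0 without KO mCherry replicate 1). At an unadjusted p under 0.05 there were 0 and 1 of the list and 45 and 816 of all genes, and DESeq2 also called 0 of the list in both. In data simulated with the spread of these libraries, the knockout comparison recovered 0 of 200 genes changed 64-fold, so these counts of 0 say little about the genes.

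Ago3 had the most reads, 5384, of which most were in D1320A/D1709A replicate 1 at 276.9 CPM against 0 to 12 CPM elsewhere. Ago2, the Argonaute that can cut its target, had 2317 reads and ranged from 0 to 50.3 CPM, again highest in D1320A/D1709A replicate 1. Ddx5 had 1224 reads (0 to 23.8 CPM), Tnrc6b 1032 (0 to 17.7), Ddx17 872 (0 to 17.7) and Drosha 666 (0 to 14.8). Prkra, Ago4, Lin28a and Lin28b had no read. As for Dicer1, a single library could hold most reads of a gene.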

How the data were processed

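The 16 libraries hold small RNA of 15 to 50 nt, per the labels' protocols. The deposited values are raw counts: each distinct untrimmed read with its number of copies, made by the authors with tools not given in the sources used here. Adapter sequence was trimmed from a match of 12 inner bases, or of at least 5 bases ending the read. Inserts of 20 nt or more were matched without mismatch to all GENCODE M21 (GRCm38) transcripts in sense, and reads of several genes were left out. Counts were divided by inserts of 15 nt or more to give CPM. Groups follow the labels. Dicer1, the gene lists and the tests were chosen with earlier results of these data known. Named are Dicer1, its 6 most-read sequences, each group's most-read sequence of 10 or more reads, pathway genes past the test or among the 6 with most reads, the 5 genes most like Dicer1, and the mutated codons. Pathway genes were tested with edgeR 4.0.16 over genes with 20 or more reads (DESeq2 1.42.0 as an alternative, R 4.3.3), with Benjamini-Hochberg adjustment, tested on simulated data: 146 of 200 genes changed 4-fold were recovered at low spread in the knockout comparison. Other steps used Python 3.11.15 and scipy 1.17.1. The genome sequence and the protein table were not used here.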

Additional observations from a re-analysis of the deposited data

Results flagged for a closer look

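Reads that match Dicer1 in antisense without mismatch were outside every comparison above. hsDicer replicate 2 had 30 such reads (1.60 CPM), of which 27 form a sequence of 28 nt opposite bases 1641 to 1668 and 3 a sequence of 22 nt opposite bases 2382 to 2403, both in the coding sequence. This exceeds the mCherry libraries, which had 1 antisense read (WT mCherry replicate 2, in a transcript other than Dicer1-201) and otherwise 0. The other 11 construct libraries had 0, so the signal rests on 1 library.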

How the results depend on the processing

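The construct mean of 17.59 CPM became 0.1845 with each sequence counted once per library, 2.828 at 25 nt or more, 26.26 with reads of other genes kept, 64.93 with up to 1 substitution, 143.4 when scaled to reads matched to 1 gene and 111.4 with up to 3 substitutions in the coding sequence, and ranged from 6.477 to 19.18 with each library left out. The mCherry mean of 0.05205 CPM became 0 at 25 nt or more, 48.88 with reads of other genes kept (4966 such reads), 0.2676 and 0.313 with up to 1 and 3 substitutions, 0.3642 when scaled to reads matched to 1 gene and 0 without sequences under 5% of another library, and 0.03713 to 0.0694 with each library left out. The coding share of 97.72% became 93.36% at 25 nt or more, 64.63% with reads of other genes kept, 90.62% with each sequence counted once per library and 99.65% with up to 3 substitutions, searched only in the coding sequence so that the share could only rise, and 93.22% to 98.66% with each library left out. The order of the group means also depended on the shortest read length allowed. At 25 nt or more, K70A fell from 76.22 to 2.402 CPM, below D1320A at 12 and Y971A/Y972A at 2.514. At 18 nt or more, D1320A/D1709A rose from 2.113 to 7.402 CPM, above Y971A/Y972A at 6.645. The limits of 3 substitutions and of 5% were chosen after seeing the data. Pathway calls were 0 in all 20 alternatives of each comparison. Calls over all genes ran from 0 to 67 in the knockout comparison (67 by DESeq2) and from 0 to 59 in the construct comparison (59 by DESeq2, 42 with TMM, 0 without KO mCherry replicate 1). Same-numbered libraries deviated together only weakly in their gene levels (median correlation 0.163, lowest 0.0225). This correlation is no measure of the number of coding genes sampled or of the read length, both lower in replicate 1 of every group. With the replicate as a block, calls were 0 of the list and 13 of all genes in the construct comparison. The cause of these moves was not tested. With 2 libraries a group and levels set by a few sequences, differences between construct groups are not resolved.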
